A study of Mus musculus with 31 samples.

Results

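Mitochondrial β-oxidation and the making of ketone bodies were described through 31 genes in the liver of mice lacking ChREBPβ or both ChREBP isoforms. The genes were taken by name from a fixed list that follows the pathway from fatty acid activation to ketone bodies, and all 31 were found among the 37074 gene names of the array. They were read by 58 probes, of which 56 passed the filter on spot quality flags. All 31 genes kept at least 1 probe among the 36059 probes and 23968 gene names tested. The other probe of Acsl3 and a further probe of Acsl5 did not pass. That of Acsl3 was well above background on all arrays and so failed on another flag, which left Acsl3 with 1 tested probe. That of Acsl5 was well above background on at most 1 array of a group.

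The liver arrays came from 31 male C57BL6/J mice, 1 array per mouse, which were fasted for 24 hours and then refed for 18 hours with food and water containing 20% glucose. The groups were 8 ChREBPβ-deficient mice, 8 WT littermates of that line, 7 total ChREBP-KO mice and 8 WT littermates of the total line. ChREBPβ-deficient mice lacked exon 1b of Mlxipl in the whole body after CRISPR/Cas9 editing and kept ChREBPα, and total ChREBP-KO mice were Mlxipl-null mice lacking ChREBPα and ChREBPβ. The ages of the mice were not given in the sources used here, and the line within each genotype from which a mouse came was not labelled. Between 34131 and 38612 of the 59305 non-control spots passed the quality flags on an array. The total ChREBP-KO mouse with replicate number 4 stood apart, with a median background of 33 and the fewest such spots. Mlxipl read on the log2 scale averaged 15.28 ± 0.12 in WT littermates (SD, n = 8) and 14.12 ± 0.13 in total ChREBP-KO mice (SD, n = 7), and 15.09 ± 0.17 and 14.64 ± 0.14 in the ChREBPβ line (SD, n = 8 each), with no overlap between genotypes in either line.

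β-Oxidation shortens fatty acids inside mitochondria. Acyl-CoA synthetases first join a fatty acid to coenzyme A, carnitine palmitoyltransferases carry long chains across the mitochondrial membranes, and a repeated cycle of dehydrogenation, hydration, a further dehydrogenation and thiolysis releases acetyl-CoA. The electrons pass through the electron transfer flavoprotein to the respiratory chain, and in the fasting liver much of the acetyl-CoA becomes ketone bodies. Refeeding with sugar normally favors the opposite pathway, fatty acid synthesis, which ChREBP drives together with glycolysis.

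In total ChREBP-KO mice most of the 31 genes were read at higher levels than in WT littermates, with Cpt1a highest in fold. A pair of long-chain acyl-CoA synthetases, Acsl5 and Acsl3, were lower. At an adjusted p under 0.05 over all probes (limma), 18 of the 31 genes were higher, 2 were lower and 11 were not called, where 14.4% of all genes tested were called higher and 14.8% lower. The median difference over the 31 genes was 0.21 on the log2 scale, against 0.0078 over all genes, and 27 of 31 were positive. Among the 31, 4 had every total ChREBP-KO mouse above every WT littermate, where 3.3% of all genes did, and 1 had every one below, where 4.45% did. Counted by probe, 28 of 56 were higher and 4 lower, where 14.5% and 14.6% of all probes were. In ChREBPβ-deficient mice none of the 31 genes was called in either direction, where 0% of genes were called higher and 0.00417% lower. There 28 of 31 differences were positive, the median was 0.10 against -0.0035 over all genes, and 8 genes had an unadjusted limma p under 0.05, where 5.06% of all genes did.

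**Figure D1:**
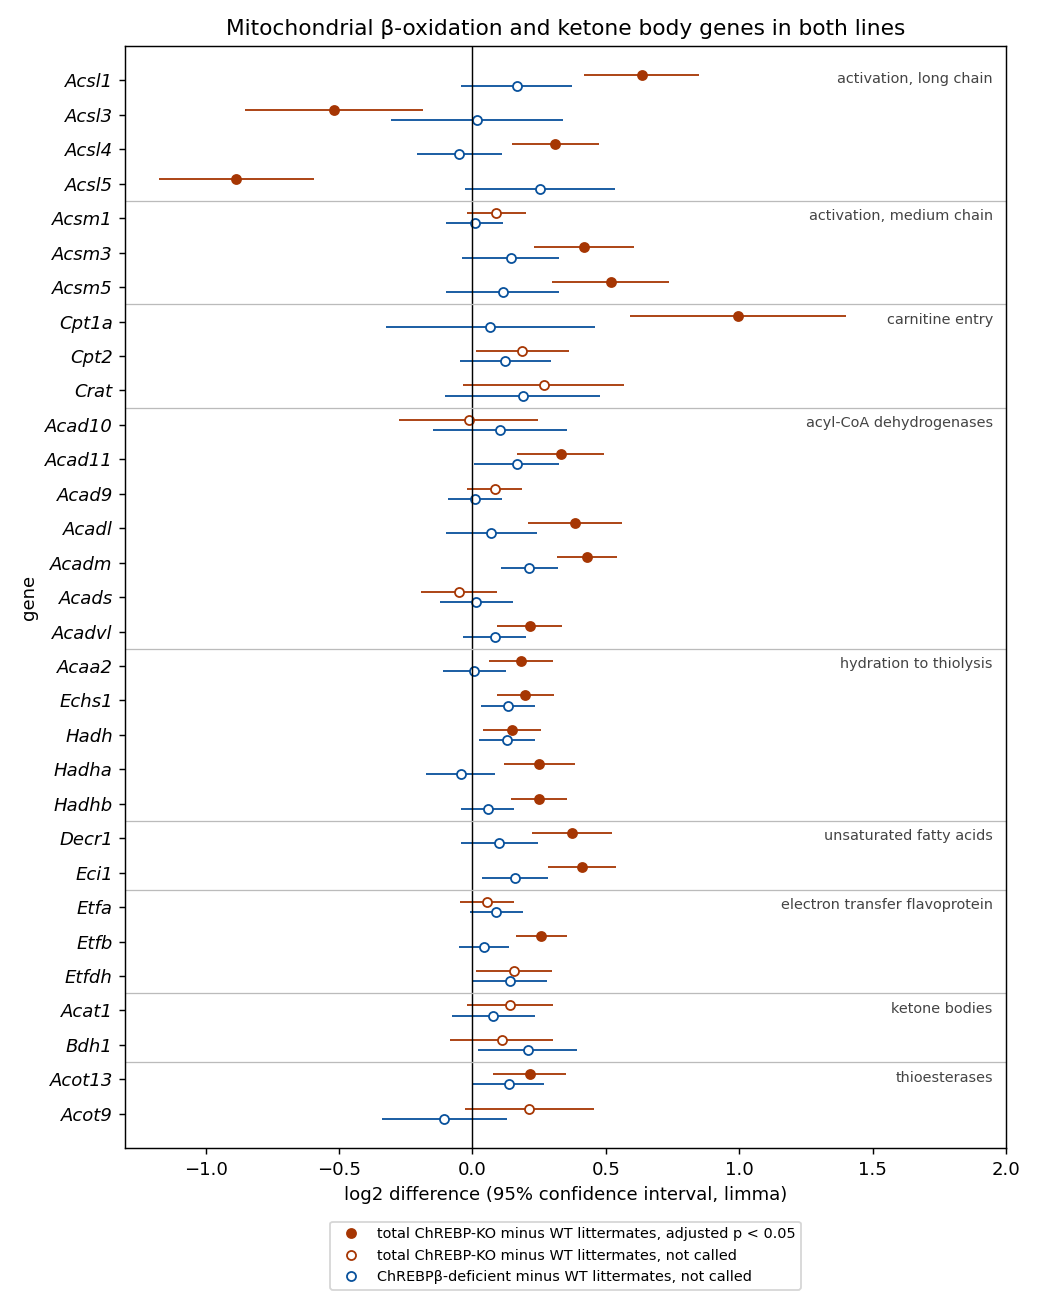
Log2 difference of each of the 31 genes between deficient mice and their WT littermates, for the total line and the ChREBPβ line, with 95% confidence intervals and genes ordered by step. Filled points passed an adjusted p under 0.05, and all filled points belong to the total line, 18 to the right of 0 and 2 to the left.

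The arrays were scanned on 2 days, each with all 4 groups. Fitted within each day, 27 of the 31 genes were positive in the total line on both days, with medians of 0.29 and 0.18. On the day with 4 arrays of either genotype 15 genes were higher and 2 lower, and on the other day, with 4 WT littermates and 3 total ChREBP-KO mice, 5 were higher and 1 lower. All 20 genes called over both days kept their sign on each. For 9 of the 20, the value on a day was more than 1.5 times from that over both days, always larger on the first day and smaller on the second, and these values stand beside the genes below.

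Hepatocytes carry most of this pathway in liver, and some of their markers differed between the genotypes of the total line. Of 7 hepatocyte markers, 3 were called higher in total ChREBP-KO mice (Cyp2e1 by 0.69, Cps1 by 0.44 and Ttr by 0.17 on the log2 scale) and none lower, and their summed signal was 1049419 to 1146006 in WT littermates and 1239412 to 1316513 in total ChREBP-KO mice, with no overlap. In the ChREBPβ line the sums were 1052990 to 1199978 in WT littermates and 1174206 to 1217415 in ChREBPβ-deficient mice, which overlapped. Such a sum weighs bright markers most, and a sum without the called markers was not computed. Albumin (Alb) had the same mean in all groups, 18.96, near the top of the scale. Quantile normalization gives equal ranks the same value on every array, so a probe at the top can show little difference. Of 8 adipocyte markers tested, 1 was called higher in total ChREBP-KO mice (Car3, by 0.79) and none lower, with a median difference of -0.068. Their summed signal, 79112 to 137116 in WT littermates and 158851 to 204797 in total ChREBP-KO mice, did not overlap, but without Car3 the sums of the other 7 were 1789 to 6918 and 1782 to 12192 and overlapped. Of 9 markers of stellate, endothelial and bile duct cells, 1 was called higher (Epcam, by 0.97), the median difference was 0.31, and the sums were 3995 to 5252 in WT littermates and 4653 to 8583 in total ChREBP-KO mice, with replicates 1 and 4 highest at 8583 and 7230. Without replicate 1 or without replicate 4 of the total ChREBP-KO mice, 19 or 18 of the 31 genes were higher and 2 lower. Of 9 exocrine pancreas markers tested, 4 were lower in total ChREBP-KO mice, with sums of 18350 to 38363 and 15004 to 36147 that overlapped. In bulk liver, fewer cells of a type and less RNA per cell cannot be told apart, and the part of the marker signal in the results below was not tested.

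**Figure D2:**
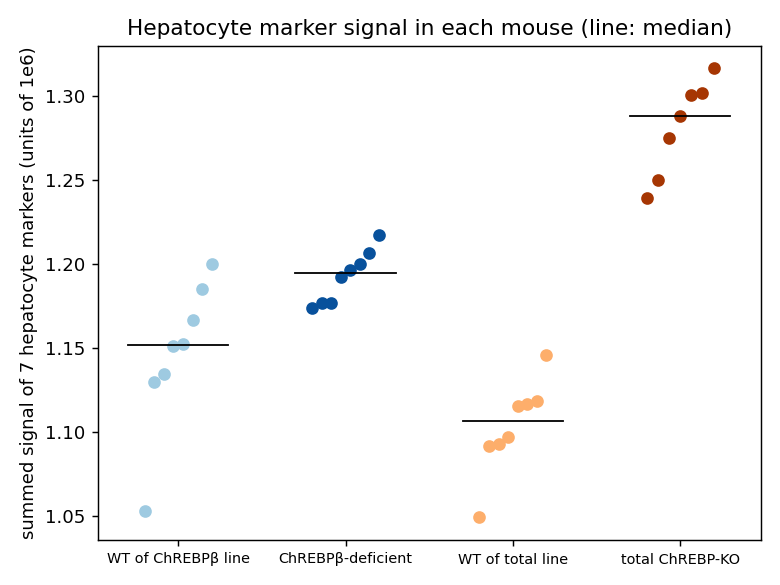
Summed signal of 7 hepatocyte markers for each mouse of the 4 groups (arbitrary units, scaled on the axis), with the median of each group as a line. The 7 total ChREBP-KO mice lie between 1239412 and 1316513, above all other mice, and the scale does not start at 0.

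Activation of long-chain fatty acids split in direction. Acsl1, the main acyl-CoA synthetase of liver, had a log2 signal of 13.93 to 14.89 (median 14.39) in WT littermates of the total line and 14.73 to 15.17 (median 15.05) in total ChREBP-KO mice. Signal in the ChREBPβ line was 14.44 to 15.02 (median 14.71) in WT littermates and 14.68 to 15.05 (median 14.83) in ChREBPβ-deficient mice. A single WT littermate of the total line, at 14.89, reached into the range of the total ChREBP-KO mice. The difference was 0.63 ± 0.11 on the log2 scale (SE), 1.55-fold (limma adjusted p = 2.7e-05), and 2 of its 3 probes were called, the other giving 0.31 (adjusted p = 0.17). That uncalled Acsl1 probe had a mean log2 signal of 5.82, against 14.72 for the probe shown.

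Acsl5, a synthetase of mitochondria and endoplasmic reticulum, was read by a probe with this sequence, shown because it carries the largest fall among the 31 genes. It is given in the sense of the transcript on mm9 chr19:55368743-55369331, plus strand, where its 60 bases span 589 bases of genome and so include an exon junction:
Acsl5 probe: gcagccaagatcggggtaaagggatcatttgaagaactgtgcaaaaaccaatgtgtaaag
The signal of this probe ran from 13.25 to 14.24 (median 13.74) in WT littermates of the total line and from 12.45 to 13.23 (median 12.89) in total ChREBP-KO mice. Every total ChREBP-KO mouse lay below every mouse of the 3 other groups, whose lowest values were 13.37 in WT littermates of the ChREBPβ line and 13.78 in ChREBPβ-deficient mice. Acsl5 fell by 0.88 ± 0.14 (log2, SE), 1.85-fold (limma adjusted p = 1.73e-05), with differences of -1.20 and -0.57 on the scan days. Its other tested probe gave a smaller fall of 0.25 (log2 difference -0.25, adjusted p = 0.0365), and the sizes of the probes thus differed by over 1.5 times. The mean log2 signals were 7.50 for that other probe and 13.63 for the probe shown. Acsl5 in the ChREBPβ line had medians of 13.74 and 13.94 and a difference of 0.25 ± 0.14.

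Acsl3, which serves lipid droplet growth, had a signal of 9.15 to 10.09 (median 9.59) in WT littermates of the total line and 8.55 to 9.57 (median 9.12) in total ChREBP-KO mice. The genotypes overlapped, and the gene fell by 0.52 ± 0.16 (limma adjusted p = 0.0164). Without the total ChREBP-KO mouse with replicate number 5, the lowest of its group, the difference was -0.43 with an adjusted p of 0.051, and on the scan days it was -0.81 and -0.19. Its medians in the ChREBPβ line were 9.68 and 9.73, with ranges from 9.11 to 10.05 and 9.22 to 10.09. Acsl4, which prefers arachidonic acid, was higher by 0.31 ± 0.08 (adjusted p = 0.00351), with all 3 probes called.

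**Figure D3:**
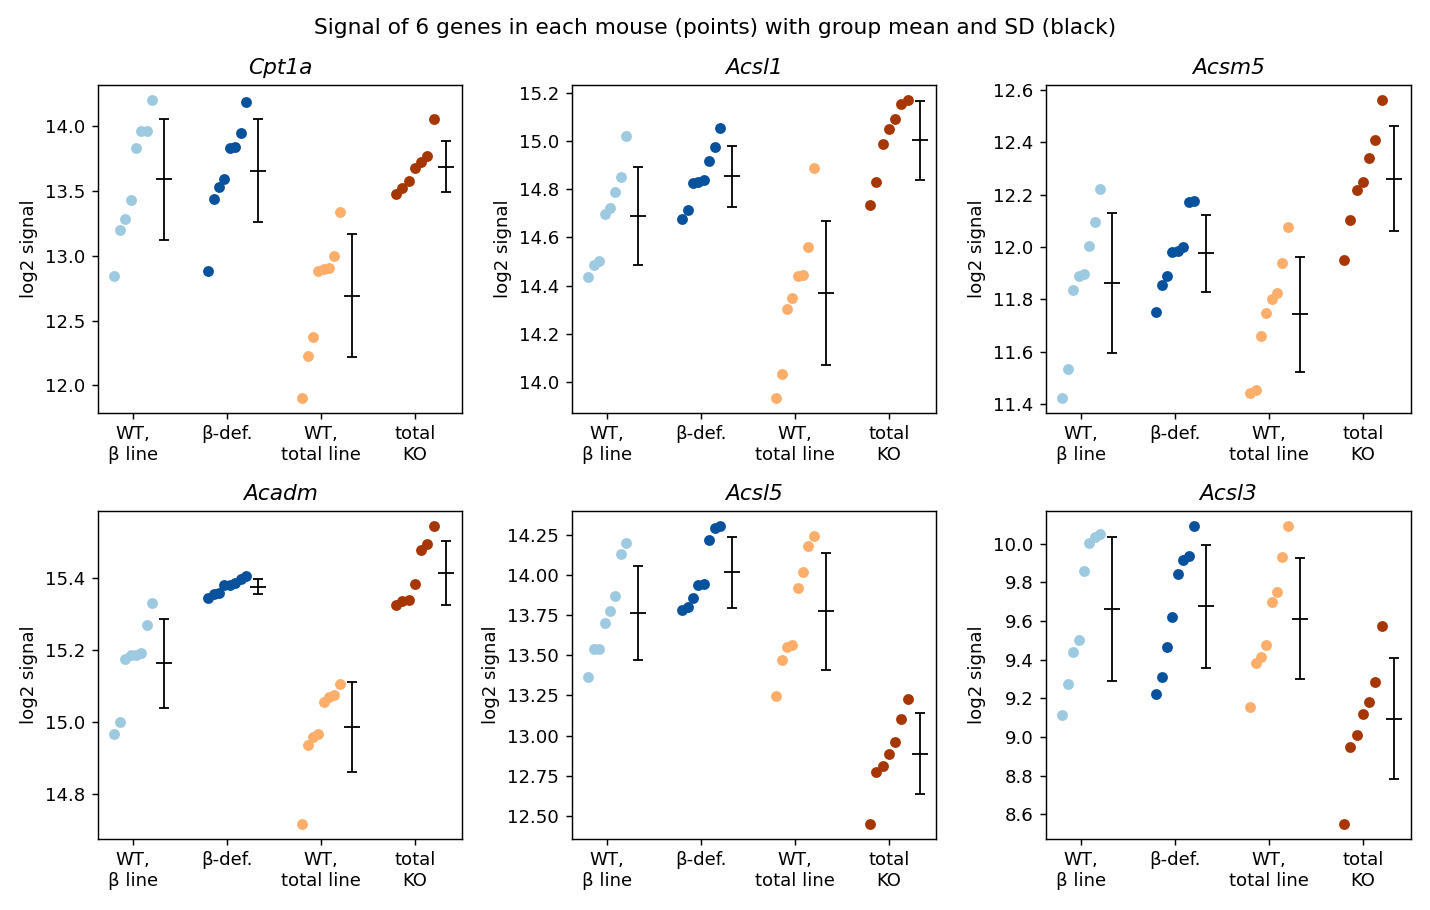
Log2 signal of Cpt1a, Acsl1, Acsm5, Acadm, Acsl5 and Acsl3 in each mouse, with group mean and SD in black, on a scale of its own per gene. Acadm in both lines and Cpt1a in the total line show no overlap between genotypes with the deficient mice higher, and Acsl5 in the total line shows none with them lower.

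Activation of medium-chain fatty acids is the work of the Acsm enzymes. Acsm5 had a signal of 11.44 to 12.08 (median 11.78) in WT littermates of the total line and 11.95 to 12.56 (median 12.25) in total ChREBP-KO mice, ranges that overlapped. Acsm5 in the ChREBPβ line ran from 11.42 to 12.22 (median 11.89) in WT littermates and from 11.75 to 12.18 (median 11.98) in ChREBPβ-deficient mice. The gene was higher by 0.52 ± 0.11 in the total line, 1.43-fold (limma adjusted p = 0.000421), on the probe shown, and by 0.32 on its other probe, which was called too. Acsm3 was higher by 0.42 ± 0.09 (adjusted p = 0.00077) on the probe shown and differed by -0.03 on the other. The mean log2 signals of these Acsm3 probes were 11.79 and 6.20. Acsm1 differed by 0.09 ± 0.05 without a call.

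At carnitine entry, Cpt1a, the rate-limiting transferase of the outer mitochondrial membrane, had the largest rise of the 31 genes. Its signal ran from 11.90 to 13.34 (median 12.89) in WT littermates of the total line and from 13.48 to 14.06 (median 13.68) in total ChREBP-KO mice. In the ChREBPβ line it ran from 12.84 to 14.20 (median 13.63) in WT littermates and from 12.88 to 14.19 (median 13.71) in ChREBPβ-deficient mice. Total ChREBP-KO mice did not overlap with their own WT littermates but lay within the range of both groups of the ChREBPβ line. The difference in the total line was 0.995 ± 0.20 on the log2 scale, 1.99-fold (limma adjusted p = 0.000282), and that in the ChREBPβ line 0.07 ± 0.19. Within the scan days the former was 1.19 and 0.82. Cpt2, the transferase of the inner membrane, differed by 0.19 ± 0.09 (adjusted p = 0.105), and Crat, which handles short acyl groups, by 0.27 ± 0.15 (adjusted p = 0.185). A second Crat probe, with a mean log2 signal of 5.55 against 10.81 for the probe shown, was called higher at 0.32.

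The region before the start of Cpt1a is printed as that of the gene with the largest rise, as RefSeq gives it on GRCm38.p6, chr19:3323051-3323300, plus strand, with a copy of AGGTCA read on the opposite strand in capitals:
Cpt1a upstream: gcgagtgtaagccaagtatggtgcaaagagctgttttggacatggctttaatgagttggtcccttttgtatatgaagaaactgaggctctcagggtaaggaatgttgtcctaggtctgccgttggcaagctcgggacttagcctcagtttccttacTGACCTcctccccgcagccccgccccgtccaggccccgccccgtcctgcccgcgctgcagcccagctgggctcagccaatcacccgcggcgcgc
AGGTCA is the core letters bound by PPARα and other nuclear receptors. Promoter windows of 300 bases, from 250 before to 50 after a start site, were at hand for 25 of the 31 genes (27 windows). AGGTCA on either strand was found in 5 of these 27 windows, 18.5%, and in 16.3% of all 32851 windows, so its share among the genes was near that of all promoters. The 5 genes were Acadm, Acadvl, Acsm1, Cpt1a and Echs1. The paired form AGGTCANAGGTCA, with N as any base, was in no window of the 31 genes and in 0.0396% of all windows. The E-box CACGTG was in 1 window, that of Acsm5, and in 7.15% of all windows. A strict pair of E-boxes, CACGTGNNNNNCACGTG, was in none of all 32851, so this search could not tell the 31 genes from others. Looser forms of the carbohydrate response element were not searched. These are matches of letters in short windows, and no binding was measured.

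Of the 7 genes of the acyl-CoA dehydrogenase family, some of whose enzymes open each turn of the cycle, 4 were higher in total ChREBP-KO mice and none lower. Acadm, the medium-chain enzyme, had a signal of 14.72 to 15.11 (median 15.01) in WT littermates of the total line and 15.33 to 15.55 (median 15.38) in total ChREBP-KO mice. In the ChREBPβ line Acadm ran from 14.97 to 15.33 (median 15.18) in WT littermates and from 15.34 to 15.41 (median 15.38) in ChREBPβ-deficient mice. Both deficient groups lay above all of their own WT littermates, with medians that were the same to 2 decimals. The difference was 0.43 ± 0.05 in the total line, 1.35-fold (limma adjusted p = 4.43e-07). In the ChREBPβ line it was 0.21 ± 0.05, 1.16-fold, with the smallest p of the 31 genes, 0.000341 before and 0.671 after limma adjustment over all probes, and so it was not called. All 8 ChREBPβ-deficient mice were above all 8 WT littermates for Acadm, as for 0.0125% of all genes.

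Acadl, the long-chain enzyme, was higher by 0.39 ± 0.09 in the total line (limma adjusted p = 0.000937), and Acadvl, the very-long-chain enzyme, by 0.22 ± 0.06 (adjusted p = 0.00653), or 0.33 and 0.10 on the scan days. Acad11 was higher by 0.33 ± 0.08 (adjusted p = 0.00215), and its 4 probes, all called, ranged from 0.33 to 0.74. On the scan days the probe shown gave 0.49 and 0.18. Acads, the short-chain enzyme, Acad10 and Acad9, which also helps to assemble respiratory complex I, differed by -0.05 ± 0.07, -0.01 ± 0.13 and 0.08 ± 0.05 without a call. A further probe of Acad9 was called lower at -0.32, with a mean log2 signal of 5.82 against 12.31 for the probe shown.

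All 5 genes from hydration to thiolysis were called higher in total ChREBP-KO mice, by small amounts. Hadha and Hadhb, the subunits of the trifunctional protein that carries out these steps on long chains, were both higher by 0.25 (SE 0.07 and 0.05, limma adjusted p = 0.00404 and 0.000364). They are neighbors read in opposite directions, with start sites 273 bases apart on chromosome 5. The upstream stretch that both promoter windows hold is printed because these values over both scan days were the same. Whether the pair is regulated together was not tested. It lies on GRCm38.p6 chr5:30155003-30155230, in RefSeq's sequence of the plus strand, with 57% G and C:
Hadha and Hadhb upstream: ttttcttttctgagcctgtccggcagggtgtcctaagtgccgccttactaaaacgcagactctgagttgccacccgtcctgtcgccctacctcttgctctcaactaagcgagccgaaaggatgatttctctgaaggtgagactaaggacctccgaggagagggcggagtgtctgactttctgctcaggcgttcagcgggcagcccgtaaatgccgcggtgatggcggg
Another Hadhb probe was called higher at 0.30, and a further one differed by -0.07 and was not called. The latter had a mean log2 signal of 8.21, against 14.19 for the probe shown. In the ChREBPβ line Hadha differed by -0.04 and Hadhb by 0.06, neither called. Echs1, the short-chain hydratase, was higher by 0.20 ± 0.05 (adjusted p = 0.00372), with 1 of its 2 probes called. Acaa2, a thiolase, was higher by 0.18 ± 0.06 (adjusted p = 0.0199), and Hadh, the short-chain 3-hydroxyacyl dehydrogenase, by 0.15 ± 0.05 (adjusted p = 0.0344). On the scan days Acaa2 differed by 0.32 and 0.036, Hadha by 0.38 and 0.10 and Hadhb by 0.27 and 0.23. The calls of Acaa2 and Hadh were lost in 4 and 5 of 12 alternative settings, and on leaving out single mice. Acaa2 differed by 0.15 (adjusted p = 0.0525) without the WT littermate with replicate number 4, and Hadh by 0.12 to 0.14 (adjusted p up to 0.0884) without any 1 of 3 WT littermates (replicates 3, 4 and 5) or 3 total ChREBP-KO mice (replicates 2, 7 and 8).

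Eci1 and Decr1, the isomerase and reductase that prepare unsaturated fatty acids for the cycle, were both higher with no overlap between genotypes of the total line. Eci1 averaged 14.36 ± 0.19 in WT littermates (SD, n = 8) and 14.77 ± 0.08 in total ChREBP-KO mice (SD, n = 7), a difference of 0.41 ± 0.06 (limma adjusted p = 8.25e-06). Its probe is shown as another that crosses an exon junction, its 60 bases spanning 1398 bases of mm9 chr17:24574515-24575912, plus strand:
Eci1 probe: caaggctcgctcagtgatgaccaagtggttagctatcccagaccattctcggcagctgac
Decr1 averaged 15.31 ± 0.21 and 15.68 ± 0.08 (SD, n = 8 and 7), a difference of 0.37 ± 0.07 (limma adjusted p = 0.000206). Eci1 differed in the ChREBPβ line by 0.16 ± 0.06 and Decr1 by 0.10 ± 0.07, neither called. On the scan days the differences in the total line were 0.56 and 0.26 for Eci1 and 0.56 and 0.19 for Decr1.

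Of the 7 genes of electron transfer, ketone bodies and thioesterases, Etfb and Acot13 were called higher and none lower. Etfb, a subunit of the electron transfer flavoprotein, was higher by 0.26 ± 0.05 on the probe shown (limma adjusted p = 9.43e-05), with 0.36 and 0.15 on the scan days, and by 0.29 on its other probe (adjusted p = 8.31e-05), while its partner Etfa differed by 0.05 ± 0.05 and Etfdh, which hands the electrons to ubiquinone, by 0.16 ± 0.07 (adjusted p = 0.0979). The ketone body genes Acat1, the mitochondrial acetoacetyl-CoA thiolase, and Bdh1, which turns acetoacetate into 3-hydroxybutyrate, differed by 0.14 ± 0.08 and 0.11 ± 0.09 without a call. Their 95% confidence intervals, -0.02 to 0.30 and -0.08 to 0.30, leave room for a rise as large as that of Etfb. They do not reach the larger rises called, such as 0.995 for Cpt1a. Acot13, an acyl-CoA thioesterase, was higher by 0.21 ± 0.07 (adjusted p = 0.016), and Acot9 differed by 0.21 ± 0.12 without a call.

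**Figure D4:**
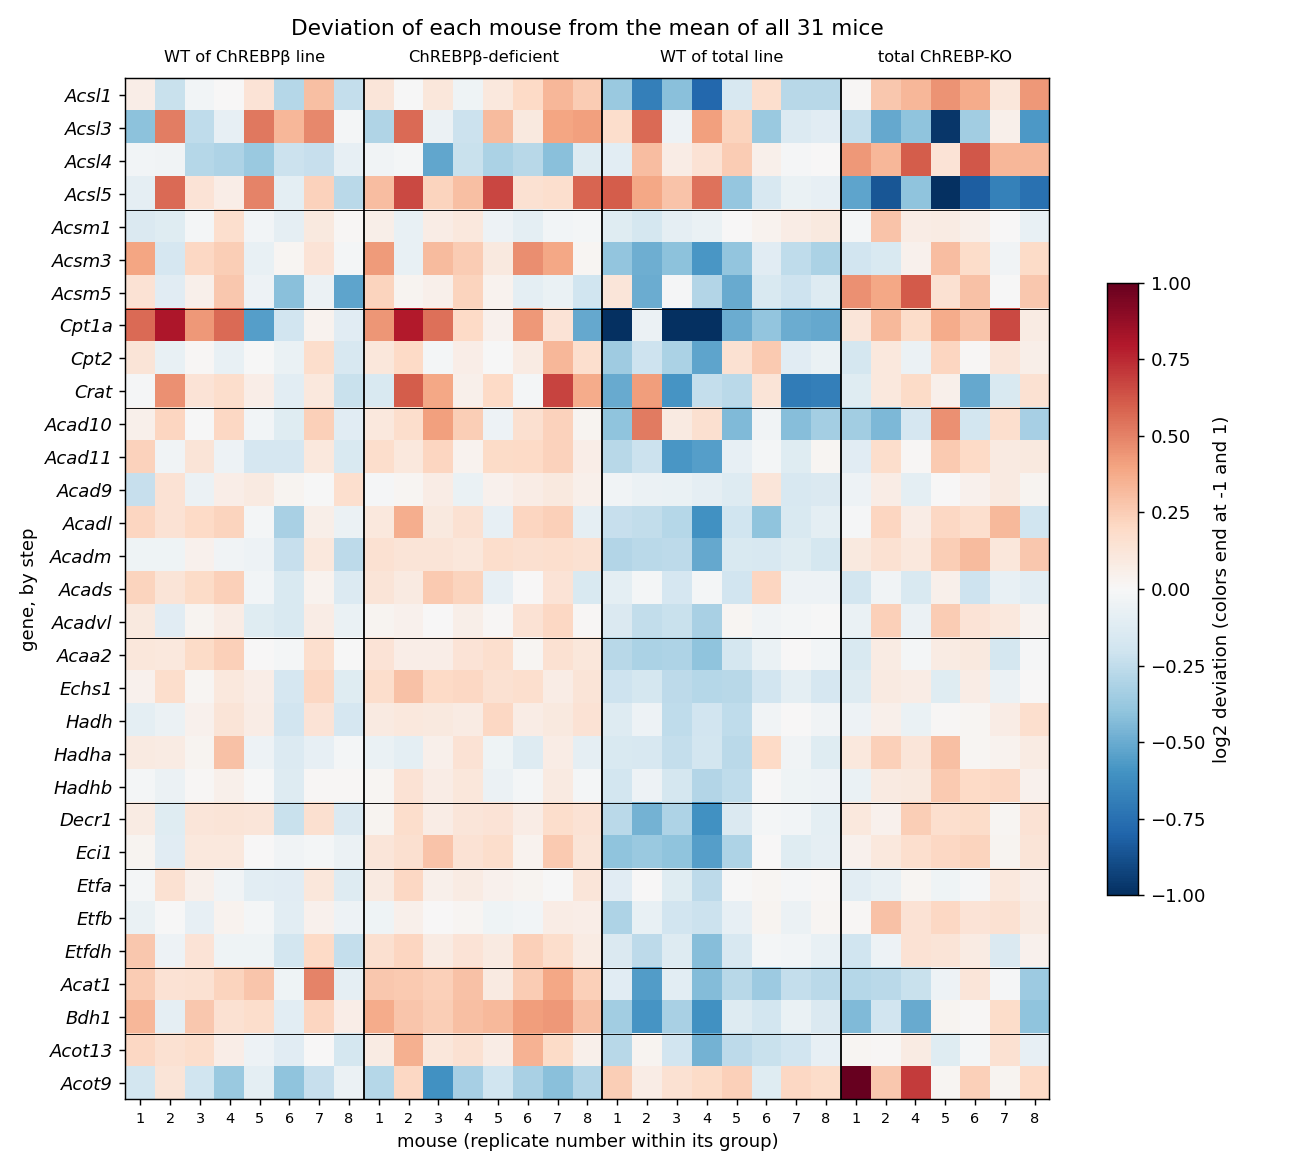
Deviation of each mouse from the mean of all 31 mice, on the log2 scale, for the 31 genes ordered by step and the mice ordered by group. WT littermates of the total line are below the mean (blue) for most genes, and total ChREBP-KO mice are below it for Acsl5 and most of them for Acsl3.

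The difference between the deficiencies was tested as an interaction. Of the 31 genes, 5 had a larger effect in the total line, where 7.09% of all genes did, and 1 a lower one, where 8.25% did. The 5 were Cpt1a (0.93 ± 0.28, limma adjusted p = 0.0205), Acsl1 (0.47 ± 0.15, 0.0274), Acsl4 (0.36 ± 0.11, 0.0254), Hadha (0.29 ± 0.09, 0.0256) and Etfb (0.21 ± 0.07, 0.024), and the other was Acsl5 (-1.14 ± 0.20, 0.000141). For Acadm the interaction was 0.22 ± 0.08 (adjusted p = 0.0527) and for Eci1 0.25 ± 0.09 (adjusted p = 0.0507), so a difference between the lines was not called. Within the scan days Acsl5 was called on both, and none of the 5 genes with a larger effect was called on the day with 3 total ChREBP-KO mice. There the interaction was 0.20 for Acsl1, 0.10 for Etfb and 0.11 for Hadha, against 0.78, 0.32 and 0.43 on the first day.

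The WT littermates of the total line were themselves below those of the ChREBPβ line for much of the pathway. Of the 31 genes, 12 were called lower, where 9.36% of all genes were, and 1 higher (Acsl4, 0.28 ± 0.08, limma adjusted p = 0.0112), where 7.79% were. The lower genes included Cpt1a (-0.90 ± 0.19), both ketone body genes, Acat1 (-0.47 ± 0.08) and Bdh1 (-0.43 ± 0.09), and Acsm3 (-0.46 ± 0.09), and the other 8, Acadl, Acsl1, Acaa2, Eci1, Decr1, Echs1, Acot13 and Acadm, lay between -0.33 and -0.18. For Acat1 all 8 WT littermates of the total line were below all 8 of the other line, as for 1.32% of all genes. On the first scan day 12 genes were called lower with a median of -0.27, and on the other none with a median of -0.07. For 8 of the 13 called genes a day's value was more than 1.5 times from that over both days, such as Cpt1a at -1.25 and -0.55. Leaving out single mice lost the call of Acsl1 in 5 fits (limma adjusted p up to 0.0755) and that of Acadm in 1 (0.0531). Of 11 alternative settings, the calls of Acsl1 and Decr1 were lost in 2 each. Those of Cpt1a, Acot13, Acsl4 and Acadm were lost in 1 each. This comparison of WT littermates shares its samples with those within the lines. The summed signal of red blood cell markers was 92919 to 195043 in WT littermates of the ChREBPβ line and 233287 to 337618 in those of the total line, and 4 of 6 tested were called higher. Of 9 exocrine pancreas markers, 4 were also called higher in WT littermates of the total line, with sums of 12696 to 26129 and 18350 to 38363, and of 8 adipocyte markers 2 were called lower (Lipe at -0.84 and Cidea at -1.80 on the log2 scale). The part of these markers in the comparison was not tested.

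Side by side, Cpt1a averaged 13.59 ± 0.47 in WT littermates of the ChREBPβ line, 13.66 ± 0.40 in ChREBPβ-deficient mice, 12.69 ± 0.47 in WT littermates of the total line (SD, n = 8 each) and 13.69 ± 0.20 in total ChREBP-KO mice (SD, n = 7). Set to the mean of the WT littermates of the ChREBPβ line, the median of the 31 genes was -0.16 in WT littermates of the total line, 0.05 in total ChREBP-KO mice and 0.10 in ChREBPβ-deficient mice. For Acsl5 and Acsl3 the means of total ChREBP-KO mice, 12.89 and 9.10, lay below those of the 3 other groups, which were 13.76 to 14.02 for Acsl5 and 9.61 to 9.68 for Acsl3.

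**Figure D5:**
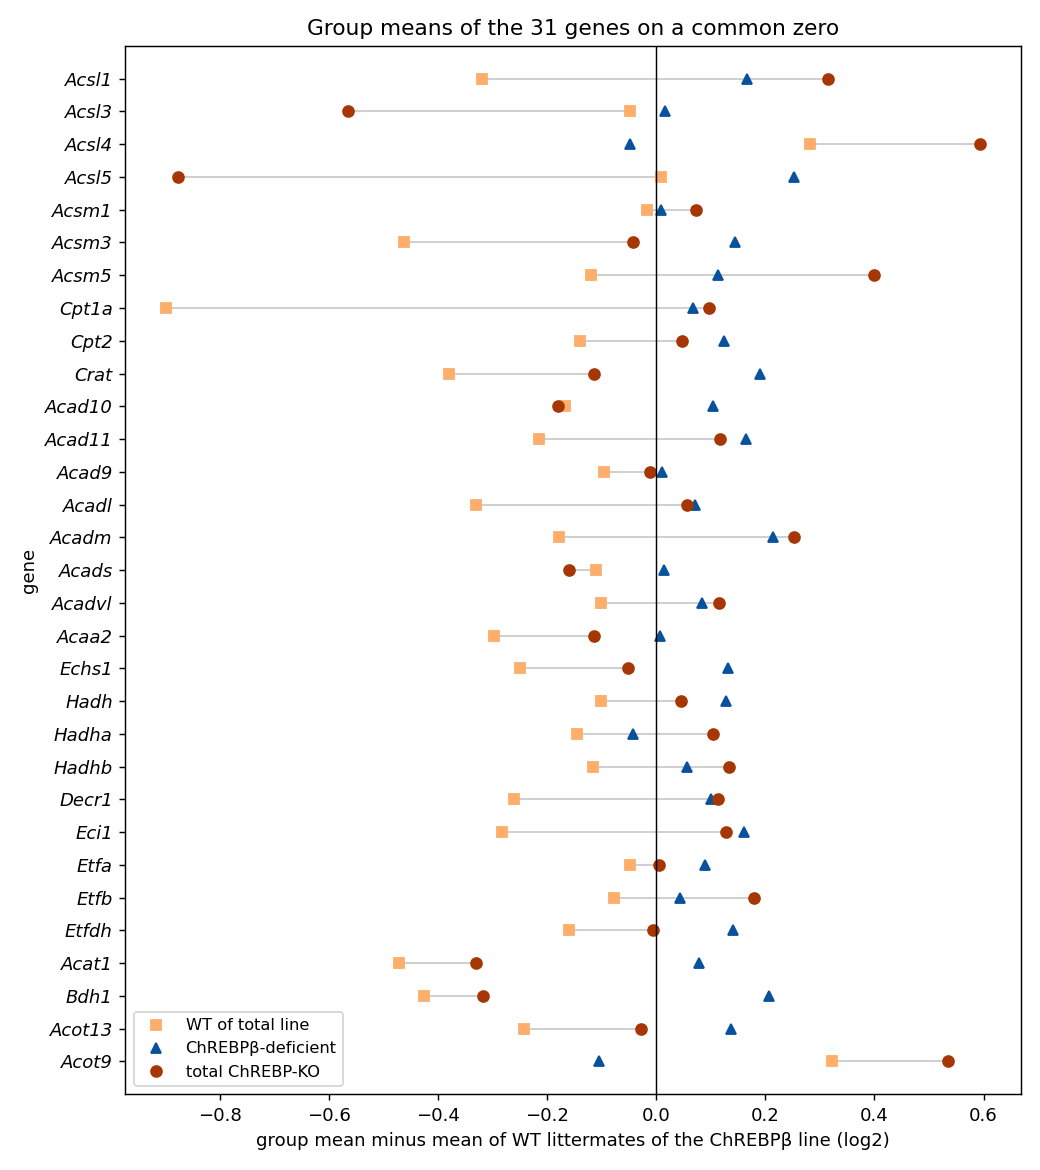
Mean of each gene in WT littermates of the total line, ChREBPβ-deficient mice and total ChREBP-KO mice, minus its mean in WT littermates of the ChREBPβ line, on the log2 scale, with a gray line joining the genotypes of the total line. For Cpt1a the total ChREBP-KO mean lies near 0 and that of the WT littermates at -0.90, and for Acsl5 the WT mean lies near 0.

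Other genes of the pathway were read from lists of related genes. Of 27 further genes of mitochondrial fatty acid and ketone metabolism tested, 13 were higher and 3 lower in total ChREBP-KO mice, against 14.4% and 14.8% of all genes, and none was called in ChREBPβ-deficient mice. Acacb, which makes the malonyl-CoA that inhibits Cpt1a, fell by 3.82 ± 0.25 on the log2 scale (limma adjusted p = 1.16e-12), with means of 13.24 in WT littermates and 9.42 in total ChREBP-KO mice. Slc25a20, the carnitine-acylcarnitine translocase, was higher by 0.60 ± 0.10 (adjusted p = 2e-05), Mcee, an epimerase of propionate metabolism, by 0.34 ± 0.06 (adjusted p = 3.49e-05), and Oxct1, which other tissues use to consume ketone bodies, by 0.86 ± 0.13 (adjusted p = 1.26e-05) from a mean of 8.34.

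Of 14 genes of fatty acid uptake and regulation, 5 were higher and 2 lower, where 14.4% of all genes were higher and 14.8% lower, so the lower count was near that of all genes. Ppara, the nuclear receptor that drives fatty acid oxidation in fasting, was higher by 0.69 ± 0.15 (limma adjusted p = 0.000809), with means of 13.17 ± 0.25 in WT littermates and 13.86 ± 0.19 in total ChREBP-KO mice and 13.86 and 13.84 in the WT and deficient mice of the ChREBPβ line. Lpin1, a phosphatidate phosphatase and coactivator, fell by 3.25 ± 0.20 (adjusted p = 6.21e-13) and Sirt5, a mitochondrial desuccinylase, by 0.63 ± 0.09 (adjusted p = 1.24e-06). Nr1d1, a clock repressor, was higher by 1.21 ± 0.25 (adjusted p = 0.000319) and Slc27a5, a bile acid and fatty acyl-CoA synthetase, by 0.21 ± 0.04 (adjusted p = 0.000427).

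Of 10 PPARα targets outside the 31 genes, 6 were higher and 1 lower (14.4% and 14.8% of all genes), with Cyp4a10 at 1.17 ± 0.15, Ehhadh at 1.14 ± 0.18, Acot1 at 1.43 ± 0.25 and Cyp4a14 at 0.67 ± 0.12 on the log2 scale (limma adjusted p from 7.02e-07 to 0.000113). Cyp4a10 and Cyp4a14 are fatty acid ω-hydroxylases with near-identical relatives, between which the array may not tell. Of 16 genes of peroxisomal β-oxidation, 8 were higher and none lower (again 14.4% and 14.8% of all genes), with Acaa1a, a thiolase, at 0.47 ± 0.07, Decr2, a reductase, at 0.21 ± 0.04 and Hsd17b4, a multifunctional enzyme, at 0.28 ± 0.08, and with Ehhadh counted in both lists. No gene of these lists was called in ChREBPβ-deficient mice.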

How the data were processed

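Labelled Cy3 RNA of 31 mouse livers was measured on one-color Agilent arrays, 1 per mouse, and groups and replicate numbers came from the sample labels. Spot intensity, as the deposited scanner output of Feature Extraction 10.10.1.1 holds it, had no scaling across arrays. The authors also supplied log2 values per probe, made by weighting spots on their quality flags, quantile normalization and a median over repeated spots (column medians 7.504 to 7.511, log base inferred from scanner values). Their values and those used here correlated at 0.999995 over 36057 probes. Probe positions are those of the array annotation on mm9, and gene symbols come from the array's own annotation.

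Here log2 of the median signal was taken, a spot stayed in if it was found, significantly positive and clear of its background on 26 or more arrays, or on 6 or more from a single group, values were quantile normalized, and spots of 1 probe name were reduced to their median. The 4 groups entered 1 linear model (limma 3.58.1 in R 4.3.3) with Benjamini-Hochberg adjustment over all probes and a threshold of 0.05. Where a gene had several probes, the one of highest mean signal stood for it. All 31 genes were named. Values by group were printed for the called genes with the 4 largest rises and the largest falls (2 in all) in total ChREBP-KO mice and for the gene with the smallest p in ChREBPβ-deficient mice. From each related list up to 4 genes with the smallest p were named, with Mlxipl and Ppara (some genes of the rule are not reported here), and genes named beside a cell type count were its called markers. Values of Eci1 and Decr1 by group were added after they were seen. The genes and lists were chosen with earlier results of these data known. Cell type markers also covered exocrine pancreas (4 of 9 tested lower in total ChREBP-KO mice), adipocytes (1 of 8 higher, Car3), red blood cells (1 of 6 higher, Alas2), immune cells (1 of 9 higher, Ptprc) and stellate, endothelial and bile duct cells (1 of 9 higher, Epcam), with none called in ChREBPβ-deficient mice. Promoter sequences came from RefSeq (GRCm38.p6), and motifs were searched on both strands. The fit was tested on simulated data. Plots used matplotlib 3.10.9. The number of arrays limits the precision. Alternatives were other signals, scalings, filters and background correction (normexp, offset 50), the deposited table, slide, scan date and replicate number as blocks, separate fits, an intensity trend, a fold of 1.5, any probe of a gene, exact Mann-Whitney tests, leaving out each mouse, and, chosen after seeing the data, separate fits within each scan day.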

Additional observations from a re-analysis of the deposited data

Results flagged for a closer look

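Values that stood apart from their group were looked for in the 31 genes within each group, 124 sets of values in all, and 3 stood apart at the 95% limit of Dixon's test, where chance flags about 1 in 20. All 3 were WT littermates of the total line. Acadm in replicate 4 was the lowest of its group at 14.72, against 14.93 for the nearest mouse. Replicate 6 was the highest of its group for Acad9, at 12.43 against 12.28, and for Acads, at 13.39 against 13.16. Without replicate 4, the difference of Acadm in the total line was 0.39 and still called.

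The effects of the deficiencies differed for 6 genes by the interaction in limma. The difference, total line minus ChREBPβ line, was 0.93 for Cpt1a, 0.47 for Acsl1, 0.36 for Acsl4, 0.29 for Hadha, 0.21 for Etfb and -1.14 for Acsl5 on the log2 scale. For Cpt1a, Acsl1 and Acsl4 the WT littermates of the lines also differed (-0.90, -0.32 and 0.28), and the part of this difference in the interaction was not tested.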

How the results depend on the processing

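The 18 higher and 2 lower genes in total ChREBP-KO mice were 14 to 19 and 2 to 3 under the other signals, scalings, filters, blocks, probe rules and tests, except that a fold of at least 1.5 left 2 higher (Acsl1 and Cpt1a) and 1 lower (Acsl5), and that the second scan day alone gave 5 higher and 1 lower. Leaving out each mouse gave 16 to 19 higher and 1 to 2 lower. Of 12 alternative settings in which single genes were followed, the call was lost in 5 for Hadh, 4 for Acaa2 and 2 for Acot13. For Echs1 and Acsl4 it was lost in 1 each. No gene was called in ChREBPβ-deficient mice under any alternative with adjustment, and exact Mann-Whitney tests without adjustment called 7 higher. The 5 genes with a larger effect in the total line became 8 with the processed signal, 75th percentile scaling of the median signal, normexp, slide as a random block or an intensity trend, 9 with the deposited table, 1 with a fold of 1.5, and 2 and 0 within the scan days, and 5 to 10 on leaving out each mouse. The count of lower effects became 2 with any probe of a gene. Between the WT littermates, the gene called higher became 2 with the processed signal, normexp, the filter on all arrays, slide as a random block, scan date as a block, a separate fit, any probe of a gene and either Mann-Whitney test, 0 with slide as a fixed block, a fold of 1.5 and within the first scan day, and 1 to 2 on leaving out each mouse, and the lower genes became 1 with a fold of 1.5 and 0 within the second scan day (10 to 15 on leaving out each mouse). The cause of these shifts was not tested.

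No called gene changed sign within a scan day, where 2 genes changed sign on either day in the total line, 4 in the ChREBPβ line, 8 in the interaction and 7 between the WT littermates. Among the single genes recomputed under every alternative, signs changed for these, none of them called. Acad10 in the total line was 0.015 with the replicate block, 0.19 within the second scan day and -0.11 to 0.076 on leaving out each mouse. Acsm1 in the total line was -0.056 within the second scan day. In the ChREBPβ line Acsl3 was -0.077 within the first scan day and -0.062 to 0.081 on leaving out each mouse, and Cpt1a was -0.039 to 0.18.

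Mice of the same replicate number were not taken as pairs, since not every correlation of their deviations was over 0.1 in either line (6 of 8 in the ChREBPβ line, from -0.16 to 0.53, and 2 of 7 in the total line, from -0.21 to 0.24). A mouse correlated best with its own number in 4 of 8 and 1 of 7. Mice of the same number mostly shared a scan day, and the part of the scan day in these correlations was not tested. With the replicate number as a block 16 genes were higher and 2 lower in the total line, 0 were called in the ChREBPβ line, and 5 effects were larger and 1 lower. Arrays shared slides with a correlation of 0.077. The replicate block was not used between the WT littermates of different lines, and the Mann-Whitney test was not run for the interaction. The precision is limited by 7 or 8 arrays per group, and by 3 to 5 per group within a scan day.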

Other observations

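The 31 genes varied less among ChREBPβ-deficient mice than among their WT littermates in this description, with a median SD over genes of 0.08 against 0.15 on the log2 scale, and of 0.13 in total ChREBP-KO mice against 0.15 in their WT littermates. Cpt1a had the largest SD in both groups of the ChREBPβ line and in WT littermates of the total line (0.40 to 0.47), and Acot9 in total ChREBP-KO mice (0.38). The spread was not tested, and that over all genes was not computed, so it cannot be called particular to the 31 genes. Acot9 ranged from 8.18 to 9.20 in total ChREBP-KO mice and from 8.04 to 8.40 in their WT littermates. Its highest values in total ChREBP-KO mice were those of replicates 1 and 4, at 9.20 and 8.86, which also had the highest sums of stellate, endothelial and bile duct markers, 8583 and 7230, against 3995 to 5252 in their WT littermates. The part of these markers was not tested.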
